A study of Mus musculus with 8 samples.

Results

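Glycogen, the branched glucose store of muscle, was followed here through 9 genes: the phosphorylase kinase subunit genes Phka1, Phkb and Phkg1, the phosphorylase gene Pygm, the phosphatase targeting gene Ppp1r3a, and the synthesis genes Gys1, Gyg, Gbe1 and Ugp2. They were chosen as genes of glycogen synthesis and breakdown and their control, with earlier results of these data known. All 9 were found by symbol among the 54532 genes of each count table and passed the filter on low counts that left 10691 genes. The samples were quadriceps muscle of chow-fed mice aged 3 months, read by 3′ mRNA sequencing (QuantSeq FWD), which takes reads from near the end of each polyadenylated transcript. The knockout group (4 libraries, MckCre-Gpcpd1, Gpcpd1 Flox/Flox with MckCre) had both Gpcpd1 alleles floxed and carried a Cre transgene under the muscle creatine kinase (Mck) promoter, which is active in muscle fibres, so other cells of the tissue keep the gene. The control group (4 libraries, Gpcpd1 Flox/Flox without MckCre) had the same floxed alleles and no Cre, so Cre and the loss of Gpcpd1 cannot be told apart. The study's title is concerned with glucose metabolism in this knockout. Its labels do not say that each library came from a different mouse, so the spread behind each p-value is that of libraries and may be technical.

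In muscle, glycogen is started on the self-glucosylating protein glycogenin, lengthened by glycogen synthase from UDP-glucose and branched by the branching enzyme. It is broken down by glycogen phosphorylase, which is switched on when phosphorylase kinase phosphorylates it. Phosphorylase kinase is built of regulatory alpha and beta subunits, a catalytic gamma subunit and a calcium-binding delta subunit, and it responds to calcium during contraction and to protein kinase A during adrenaline action. Human patients with defects of the muscle alpha subunit or of muscle phosphorylase store excess glycogen in muscle.

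Libraries held 4806806 to 5405999 reads in the knockout group and 4404116 to 5183079 in the control group. The targeted gene Gpcpd1 had 30.4, 35.7, 35.9 and 38.6 CPM (a gene's reads relative to the TMM-adjusted total of its library) in the 4 knockout libraries, against 159, 156, 135 and 149 in the 4 control libraries, so the groups stood apart in the way the labels say, although 3′ reads need not lie in the deleted part. Of 8 listed muscle fibre markers none was without reads, and their summed level was 132017 to 136604 CPM in knockout and 122071 to 138263 CPM in control libraries. In each library Xist had at most 1 read while the Y-linked gene Ddx3y had at least 647, so the X-linked member Phka1 was compared between libraries of like sex. Whether fewer cells of a type or less RNA per cell lies behind a difference cannot be told apart in bulk tissue.

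Of the 9 genes, 1 fell (Phka1) and 2 rose (Phkg1 and Gbe1) in knockout muscle at the threshold of 0.05 on adjusted p (edgeR, quasi-likelihood), and 6 did not pass. Across all tested genes 15.7% passed, 8.87% higher and 6.80% lower. In the same 3 members the CPM of the groups did not overlap, which held for 19.2% of all tested genes. Whether 3 of 9 differs from that background was not tested. The median log2 fold change (knockout over control) was -0.05 over the 9 members and 0.008 over all tested genes. The members differed in size, from -0.95 for Phka1 to 0.39 for Gbe1 on that scale.

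**Figure D1:**
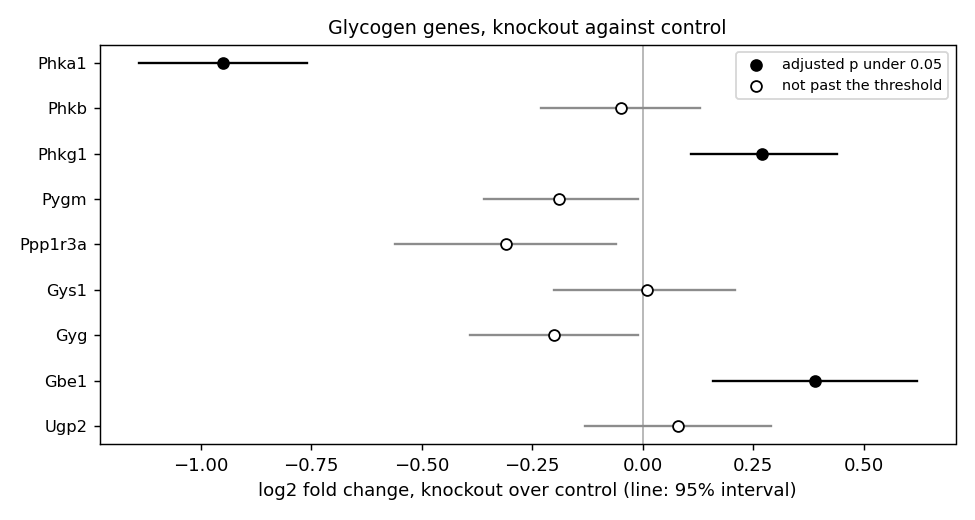
Log2 fold change of knockout over control (horizontal axis) for the 9 glycogen genes, with lines for the 95% interval and filled points for genes past the threshold. Phka1 lies at -0.95, apart from the other 8, which lie between -0.31 and 0.39.

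Phka1 encodes the muscle alpha subunit of phosphorylase kinase (ENSMUSG00000034055, GRCm38 chromosome X, 102513975 to 102644246, minus strand). It had 492, 639, 571 and 554 CPM in knockout libraries 1 to 4, against 1101, 1199, 1106 and 963 CPM in control libraries 1 to 4. All 4 knockout libraries lay below all 4 control libraries, and the highest knockout library was well under the lowest control. The mean of Phka1 was 564 CPM in knockout muscle, with a coefficient of variation of 10.7%, and 1092 CPM in control muscle, with a coefficient of variation of 8.89% (n = 4 each), so that the fitted knockout level was 51.7% of control. The log2 fold change of Phka1 was -0.95 (SE 0.09, 95% interval -1.14 to -0.76, edgeR adjusted p = 7.3e-08). These values rest on 2350 to 3348 reads per knockout library and 4583 to 5914 per control library. By p, Phka1 ranked 39 among the 10691 tested genes, and by log2 fold change it ranked 73 from the lowest.

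The other 2 subunit genes of the kinase gave different values. Phkb, the beta subunit gene (ENSMUSG00000036879, GRCm38 chromosome 8, 85840959 to 86061376, plus strand), had 182, 198, 212 and 175 CPM in knockout libraries 1 to 4 and 195, 185, 193 and 222 CPM in control libraries 1 to 4. The groups overlapped, and the log2 fold change of Phkb was -0.05 (SE 0.09, 95% interval -0.23 to 0.13, edgeR adjusted p = 0.758). The interval of Phkb does not reach a fall of the size seen for Phka1, whose own interval ended at -0.76.

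Phkg1, the muscle catalytic subunit gene (ENSMUSG00000025537, GRCm38 chromosome 5, 129863421 to 129898549, minus strand), had 253, 223, 248 and 226 CPM in knockout libraries 1 to 4. In control libraries 1 to 4 it had 194, 194, 200.1 and 199 CPM. Every knockout library was above every control library, and the controls lay close together (coefficient of variation 6.42% in knockout and 1.71% in control libraries). Phkg1 rose, with a log2 fold change of 0.27 (SE 0.08, edgeR adjusted p = 0.0199), a knockout level of 121% of control. The call of Phkg1 was lost without knockout 1 (adjusted p = 0.0539), knockout 3 (0.0686) or control 3 (0.0588), and with no filter on low counts (0.0547), while the value stayed between 0.23 and 0.30. At its annotated 3′ end Phkg1 shares 630 exonic bases with the gene Sumf2 on the other strand, and the strand setting of the counting is not given in the sources used here. Sumf2 held 6 to 13 reads per knockout library and 4 or 5 per control library, and the part of shared reads in the Phkg1 value was not tested.

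**Figure D2:**
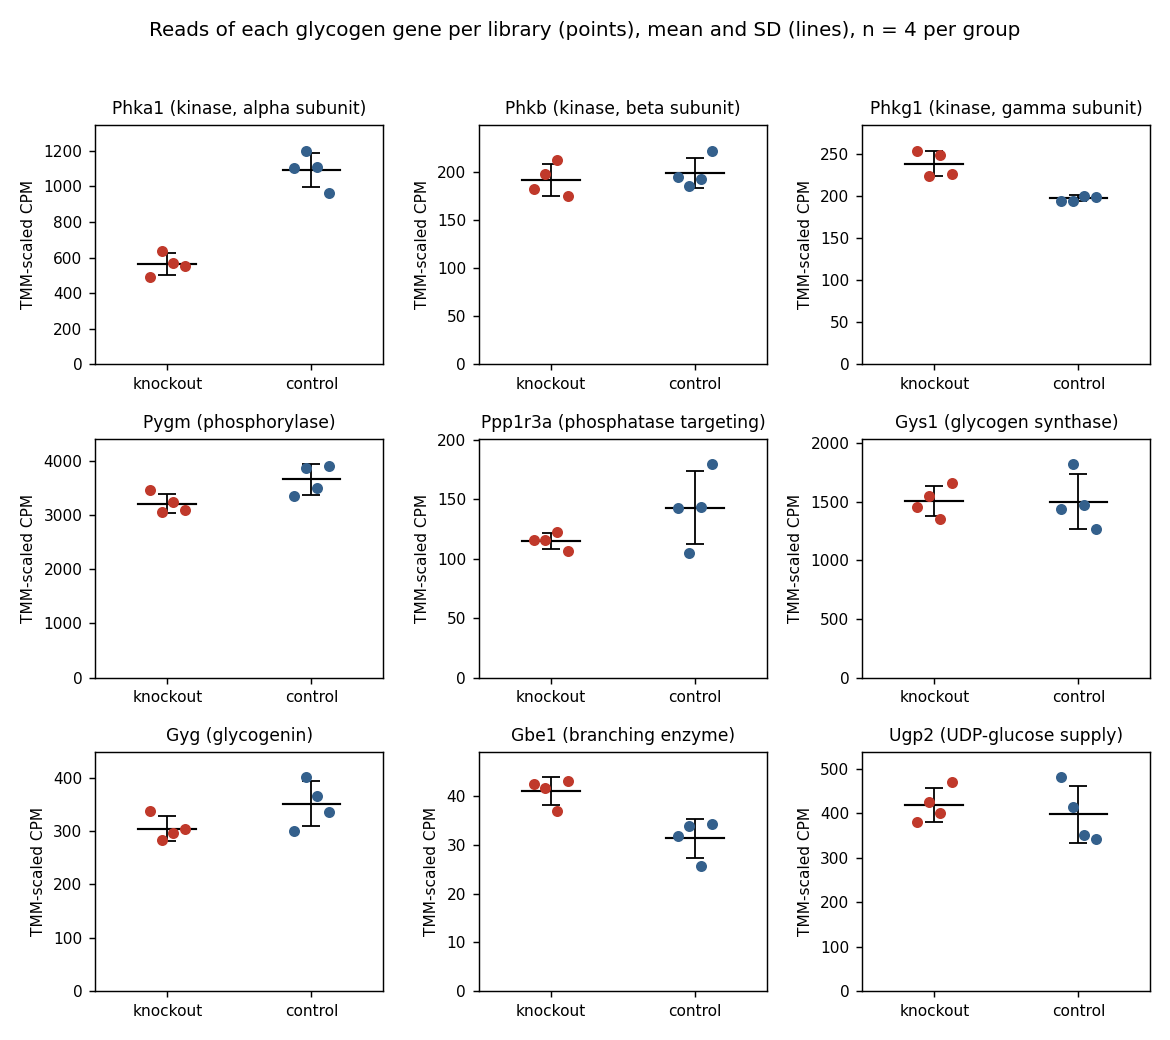
TMM-scaled CPM (vertical axes, from 0) of the 9 genes in each library, with knockout libraries on the left and control libraries on the right, and lines for the mean and SD of 4 libraries. Phka1 at 492 to 639 CPM in knockout libraries and 963 to 1199 CPM in control libraries shows the widest gap, Phkg1 and Gbe1 are separated with knockout higher, and the other 6 overlap.

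Ratios of reads within a library do not depend on how libraries are scaled, and the length of a transcript cancels in their difference between groups. The log2 ratio of Phka1 to Phkb was 1.43, 1.69, 1.43 and 1.67 in knockout libraries 1 to 4, against 2.50, 2.69, 2.52 and 2.12 in control libraries 1 to 4. The groups did not overlap, and the ratio was lower in knockout muscle by a difference of -0.90 on the log2 scale, or 0.535 of the control ratio. For Phka1 to Phkg1 the mean log2 ratio was 1.24 ± 0.23 in knockout and 2.47 ± 0.15 in control libraries (SD, n = 4 each), a difference of -1.23. For Phkb to Phkg1 it was -0.31 ± 0.14 in knockout and 0.01 ± 0.10 in control libraries, a difference of -0.32. For Phka1 to Pygm, kinase subunit to substrate, it was -2.51 ± 0.23 in knockout and -1.75 ± 0.19 in control libraries, a difference of -0.77. Each of these 4 ratios gave p = 0.0286 in an exact two-sided permutation test, the smallest value that 4 against 4 libraries allow. After Benjamini-Hochberg adjustment over the 9 ratios computed it was 0.0643, so none passed the threshold once adjusted. With that smallest value no ratio could have passed by itself after the adjustment, whatever its size. Ratios that share a gene are not separate results, which holds for Phkb to Phkg1 as well as for those with Phka1. The limits given above for Phkg1 apply to its ratios too. In the other 5 ratios, all among Pygm, Ppp1r3a and the synthesis genes, the groups overlapped, with differences from -0.21 to 0.38 and exact permutation p from 0.0857 to 0.657.

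**Figure D3:**
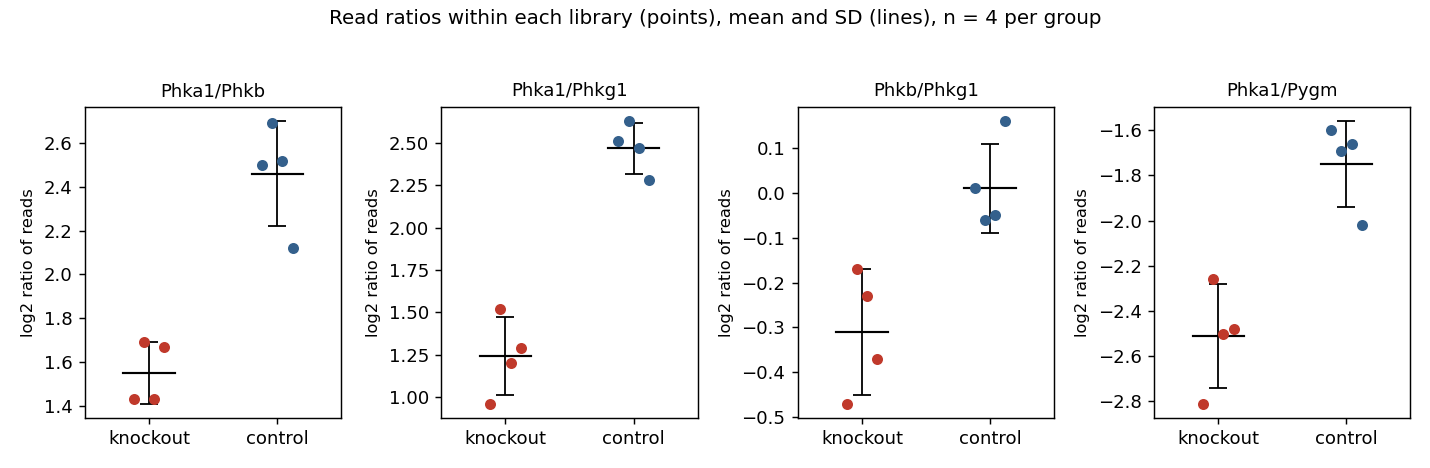
Log2 ratio of reads between pairs of genes within each library (vertical axes, which do not start at 0), knockout left and control right, with lines for the mean and SD of 4 libraries. The 4 pairs shown are those of the 9 ratios computed whose groups did not overlap. In each the knockout libraries lie below the control libraries, with differences of means from -1.23 for Phka1/Phkg1 to -0.32 for Phkb/Phkg1.

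The promoters of the kinase subunit genes and of Gbe1 are shown because these hold the 3 genes that changed and, with Phkb, a subunit gene that did not pass. Each runs from 250 bases before to 50 bases after the RefSeq start (GRCm38.p6), 5′ to 3′ on the gene's strand, at chrX:102644197-102644496 (minus strand) for Phka1, chr8:85840738-85841037 (plus) for Phkb, chr5:129879039-129879338 (minus) for Phkg1 and chr16:70313699-70313998 (plus) for Gbe1. Capitals mark the E-box letters CANNTG, the core bound by the myogenic bHLH family and by many other factors.
Phka1: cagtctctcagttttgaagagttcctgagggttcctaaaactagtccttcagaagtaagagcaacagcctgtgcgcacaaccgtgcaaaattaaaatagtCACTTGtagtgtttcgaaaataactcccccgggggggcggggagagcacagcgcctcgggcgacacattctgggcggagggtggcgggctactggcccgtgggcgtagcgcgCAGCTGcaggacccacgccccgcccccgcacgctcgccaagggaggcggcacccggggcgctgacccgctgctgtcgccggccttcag
Phkb: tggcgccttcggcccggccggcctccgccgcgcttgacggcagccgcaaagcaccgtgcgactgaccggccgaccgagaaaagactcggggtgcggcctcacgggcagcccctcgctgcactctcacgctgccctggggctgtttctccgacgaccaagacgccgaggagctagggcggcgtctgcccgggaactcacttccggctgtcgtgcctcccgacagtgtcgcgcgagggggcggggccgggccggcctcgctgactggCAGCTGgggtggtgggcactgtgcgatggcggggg
Phkg1: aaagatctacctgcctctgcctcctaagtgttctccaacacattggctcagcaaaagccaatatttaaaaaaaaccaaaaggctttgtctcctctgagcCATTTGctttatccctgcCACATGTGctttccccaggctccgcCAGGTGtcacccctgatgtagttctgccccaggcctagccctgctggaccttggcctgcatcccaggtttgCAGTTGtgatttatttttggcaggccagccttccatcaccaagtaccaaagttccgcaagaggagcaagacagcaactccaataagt
Gbe1: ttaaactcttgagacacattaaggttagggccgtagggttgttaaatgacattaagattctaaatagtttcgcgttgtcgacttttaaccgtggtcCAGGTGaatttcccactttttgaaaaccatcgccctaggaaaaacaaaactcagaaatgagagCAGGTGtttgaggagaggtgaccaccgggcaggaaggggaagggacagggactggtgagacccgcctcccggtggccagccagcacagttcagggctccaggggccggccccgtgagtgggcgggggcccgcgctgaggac
Phka1 had 2 E-box matches, Phkb 1, Phkg1 5 (of which 2 overlap) and Gbe1 2, and 72.3% of the 32851 promoters of this length in the table hold at least 1. The GC box GGGCGG, read on both strands, occurred 3 times in Phka1, 2 times in Phkb, 1 time in Gbe1 and 0 times in Phkg1, and in 35.7% of all promoters. The RefSeq start of Phkg1 lies inside the span that GENCODE gives the gene, and a longer GENCODE transcript starts upstream of it. None of the 4 held the TATA box TATAAA, the M-CAT box CATTCC or the MEF2 motif, read on both strands, which 13.6%, 14.7% and 3.19% of all promoters hold. Among all 9 genes, all of which were found in the table, Ppp1r3a alone held TATAAA or the MEF2 motif. These matches describe the letters of the window and were not set against binding data.

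Pygm encodes muscle glycogen phosphorylase, the enzyme that the kinase activates and that releases glucose phosphate from glycogen (ENSMUSG00000032648, GRCm38 chromosome 19, 6384399 to 6398459, plus strand). It had 3457, 3054, 3235 and 3102 CPM in knockout libraries 1 to 4 and 3346, 3878, 3499 and 3914 CPM in control libraries 1 to 4. Only knockout 1 reached into the control range. The log2 fold change of Pygm was -0.19 (SE 0.08, 95% interval -0.36 to -0.01, edgeR adjusted p = 0.141), which did not pass, although with library totals alone it did (adjusted p = 0.0372).

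Ppp1r3a encodes the muscle subunit that holds protein phosphatase 1 on glycogen, where the phosphatase activates glycogen synthase and turns phosphorylase off (ENSMUSG00000042717, GRCm38 chromosome 6, 14713977 to 14755274, minus strand). It had 116, 116, 123 and 107 CPM in knockout libraries 1 to 4 and 143, 105, 144 and 179.7 CPM in control libraries 1 to 4. Control 2 lay below every knockout library while the other 3 controls lay above them, and the coefficient of variation was 5.60% in knockout and 21.5% in control libraries. The log2 fold change of Ppp1r3a was -0.31 (SE 0.12, edgeR adjusted p = 0.0932), which did not pass. It passed without control 2, at -0.45 (adjusted p = 0.00185), and with no filter on low counts, at -0.33 (adjusted p = 0.00966).

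Among the synthesis genes, Gbe1, which encodes the branching enzyme (ENSMUSG00000022707, GRCm38 chromosome 16, 70313949 to 70569716, plus strand), was the 1 that rose. It had 42.5, 41.8, 37.0 and 43.1 CPM in knockout libraries 1 to 4, against 31.9, 33.9, 25.6 and 34.3 CPM in control libraries 1 to 4. The groups did not overlap, with the lowest knockout library above the highest control. The means of Gbe1 were 41.1 ± 2.80 CPM in knockout and 31.4 ± 3.98 CPM in control muscle (SD, n = 4 each), and the log2 fold change was 0.39 (SE 0.11, 95% interval 0.16 to 0.62, edgeR adjusted p = 0.0174). It rests on 199 to 219 reads per knockout library and 131 to 167 per control library, the fewest of the 9 genes. The call of Gbe1 was lost without control 3, the lowest control (0.29, adjusted p = 0.106), or without knockout 4 (0.35, adjusted p = 0.0660). The ratio of Gbe1 to Gys1, whose groups overlapped, differed by 0.38 on the log2 scale (exact permutation p = 0.0857).

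Gys1 encodes muscle glycogen synthase, which adds glucose to the growing chains (ENSMUSG00000003865, GRCm38 chromosome 7, 45434844 to 45456619, plus strand). It had 1454, 1547, 1355 and 1658 CPM in knockout libraries 1 to 4 and 1432, 1818, 1473 and 1264 CPM in control libraries 1 to 4. All 4 knockout libraries lay within the control range. The log2 fold change of Gys1 was 0.01 (SE 0.10, 95% interval -0.20 to 0.21, edgeR adjusted p = 0.976), with a sign that changed with the scaling. Gys1 shares 310 exonic bases with Ruvbl2 on the other strand at its 5′ end, whereas the method takes reads from near the 3′ end. The part of shared reads in the Gys1 value was not tested.

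Gyg encodes glycogenin, the primer of each glycogen particle (ENSMUSG00000019528, GRCm38 chromosome 3, 20122084 to 20155317, minus strand). It had 338, 283, 296 and 305 CPM in knockout libraries 1 to 4 and 300.5, 401, 367 and 337 CPM in control libraries 1 to 4. The groups overlapped, with knockouts 1 and 4 above control 1 and knockout 1 also just above control 4. The log2 fold change of Gyg was -0.20 (SE 0.09, edgeR adjusted p = 0.145) and passed the threshold only with library totals alone among the alternatives run (-0.24, adjusted p = 0.0483).

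Ugp2 encodes the pyrophosphorylase that makes UDP-glucose, the donor for glycogen synthase (ENSMUSG00000001891, GRCm38 chromosome 11, 21321138 to 21371201, minus strand). It had 381, 424, 399.7 and 470.4 CPM in knockout libraries 1 to 4 and 480.3, 413, 351 and 342 CPM in control libraries 1 to 4. The knockout libraries lay within the control range. The log2 fold change of Ugp2 was 0.08 (SE 0.10, 95% interval -0.13 to 0.29, edgeR adjusted p = 0.664), and it was 0.18 without control 1 and at most 0.011 without knockout 4, control 3 or control 4.

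A further 41 genes of glycogen metabolism and its control are reported, of which 33 could be tested. Of these, 2 were higher and 4 lower in knockout muscle, 6 of 33 in all, with a median log2 fold change of -0.01. Over all tested genes 15.7% passed, 8.87% higher and 6.80% lower, so the share in these lists, and the small counts by list below, were not read as particular to glycogen genes. Among the other phosphorylase kinase subunit genes reported, 0 of 4 passed the threshold at an adjusted p of 0.05, with log2 fold changes from -0.22 to 0.20. Phka2, the liver alpha subunit gene, had 3.63 to 5.57 CPM in knockout and 3.66 to 4.83 CPM in control libraries, on 17 to 30 reads each, so its interval was wide (log2 fold change 0.18, 95% interval -0.30 to 0.67). Phkg2, the liver gamma subunit gene, had 7.26 to 9.39 CPM in knockout and 7.11 to 10.7 CPM in control libraries and did not pass (-0.15, SE 0.18).

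Of the other breakdown genes reported 1 of 7 tested was lower and 0 higher. Pgm1, a phosphoglucomutase gene that links glucose phosphate from glycogen to glycolysis, had 1072, 1235, 1154 and 1221 CPM in knockout libraries 1 to 4, against 1515, 1973, 1718 and 1494 CPM in control libraries 1 to 4. The groups of Pgm1 did not overlap, and its log2 fold change was -0.52 (SE 0.09, edgeR adjusted p = 3.3e-04). The liver phosphorylase gene Pygl (-0.25, SE 0.18) and the brain phosphorylase gene Pygb (-0.54, SE 0.23), with 3.44 to 8.96 CPM in knockout and 4.89 to 9.88 CPM in control libraries over both, did not pass. The liver synthase gene Gys2 had 0 to 4 reads per knockout library and 0 to 2 per control library and was not tested.

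Among protein phosphatase 1 genes and its glycogen-targeting subunit genes 1 of 6 tested was higher and 0 lower. Ppp1r1a, whose product inhibits the phosphatase once protein kinase A has phosphorylated it, had 67.0, 60.2, 59.6 and 61.7 CPM in knockout libraries 1 to 4, against 33.4, 36.3, 45.8 and 40.4 CPM in control libraries 1 to 4. All knockout libraries lay above all controls, with a log2 fold change of 0.67 (SE 0.10, edgeR adjusted p = 5.7e-05). The laforin and malin genes and a partner of laforin, which guard glycogen structure, had 0 of 3 past the threshold, with log2 fold changes from -0.23 to 0.20.

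Of the kinase genes that act on phosphorylase kinase or glycogen synthase, 1 of 13 tested was higher and 3 lower. Prkag3, the gamma subunit gene of AMP-activated protein kinase found mainly in fast muscle, had 120.0, 122, 156 and 127 CPM in knockout libraries 1 to 4, against 231, 217, 256 and 212 CPM in control libraries 1 to 4. The groups did not overlap, and Prkag3 had a log2 fold change of -0.80 (SE 0.09, edgeR adjusted p = 1.5e-06). The regulatory subunit genes of protein kinase A moved in opposite directions: Prkar1a was higher (0.35, SE 0.09, edgeR adjusted p = 0.00733) and Prkar2a lower (-0.43, SE 0.08, edgeR adjusted p = 3.7e-04). Gsk3b, 1 of the kinases that inhibit glycogen synthase, averaged 238 ± 22.3 CPM in knockout and 311 ± 47.0 CPM in control muscle (SD, n = 4 each; log2 fold change -0.39, SE 0.10, edgeR adjusted p = 0.00878), with groups that met at 260.1 CPM.

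**Figure D4:**
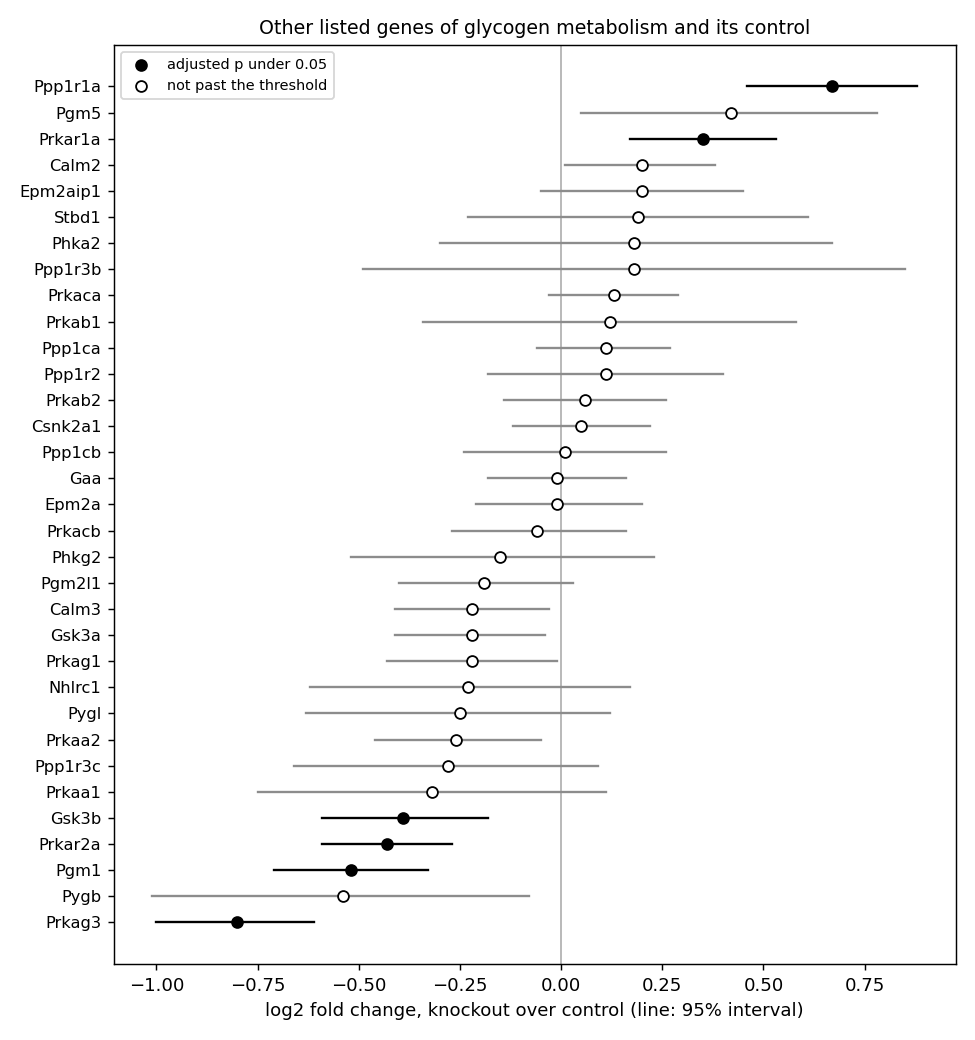
Log2 fold change of knockout over control (horizontal axis) with 95% interval for the 33 tested genes reported of the further lists, ordered by value, with filled points past the threshold. Ppp1r1a at 0.67 and Prkar1a at 0.35 lie on the right, and Prkag3 at -0.80, Pgm1 at -0.52, Prkar2a at -0.43 and Gsk3b at -0.39 on the left.

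The 5 tested genes whose profile over the 8 libraries was most like that of Phka1, by the root mean square distance between log2 CPM values centred on each gene's mean, were Tatdn2 (0.095), Htra1 (0.096), Gle1 (0.098), Sms (0.099) and Psme4 (0.100). Tatdn2 had 59.9, 74.1, 65.0 and 57.2 CPM in knockout libraries 1 to 4, against 123, 126, 121 and 94.4 CPM in control libraries 1 to 4. As in Phka1, knockout 2 was the highest knockout library of Tatdn2 and control 4 the lowest control. Psme4, a proteasome activator gene, averaged 325 ± 30.2 CPM in knockout and 603 ± 18.8 CPM in control muscle, and Sms, the spermine synthase gene and also X-linked, averaged 116 ± 13.1 CPM in knockout and 197 ± 21.5 CPM in control muscle (SD, n = 4 each). The secreted protease gene Htra1 and the mRNA export gene Gle1 had log2 fold changes of -1.09 (SE 0.14) and -0.94 (SE 0.13). These genes were found by likeness to a gene that differed, so their differences are a description.

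Glycogen genes differ between fibre types, and some listed fibre markers differed between genotypes as well, while most did not pass the threshold. Of 8 muscle fibre markers 2 were higher, Acta1 (log2 fold change 0.26, SE 0.09, a call lost in 11 of 17 alternatives) and Mb (0.87, SE 0.12), and 1 lower, the fast myosin gene Myh4 (38879 ± 2646 CPM in knockout and 48304 ± 2030.4 CPM in control muscle, SD, n = 4 each). Of 7 slow fibre markers 3 were tested, with 1 higher (Myl3) and 0 lower. Atp2a2 (log2 fold change -0.14, SE 0.17) and Tnnt1 (1.09, SE 0.89, 95% interval -1.05 to 3.24) did not pass. The summed level of all 7 was 172 to 458 CPM in knockout and 24.8 to 69.7 CPM in control libraries. That sum was mostly Myl3, with 148 to 398 CPM in knockout (398 in knockout 1, at most 171 in the others) and 7.75 to 33.4 CPM in control libraries, while the slow myosin gene Myh7 had 2 to 17 reads per knockout library and 0 to 16 per control library. Of 7 tested macrophage markers 3 were lower and 0 higher, and these calls were not refitted under the alternatives. The sum of all 8 listed macrophage markers was 52.7 to 82.5 CPM in knockout and 71.1 to 118 CPM in control libraries, with overlapping groups. Endothelial, adipocyte, red cell and liver markers had 0 called members, and 1 of 5 fibroblast markers, Dcn, was lower (-0.27, SE 0.09). By edgeR the call of Dcn was lost without knockout 3 (adjusted p = 0.0571), knockout 4 (0.148), control 3 (0.125) or control 4 (0.0650). It was also lost with the running number of the titles as a covariate (edgeR adjusted p = 0.0532). Over all tested genes 15.7% passed, 8.87% higher and 6.80% lower, and whether the marker counts differ from that background was not tested. The part of these markers in the values of the glycogen genes was not tested.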

How the data were processed

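Quadriceps RNA from 4 knockout and 4 control libraries was compared. The deposited values are whole-number counts of reads for each Ensembl gene ID, unnormalized, with a table for every library. The tools in the submitters' processing notes are Bowtie2 (version 2.3.4.1), Subread (version 1.6.2) and its featureCounts, and the builds there are mm10 and GRCm38. Which annotation, strand setting and rule for multiply mapped reads were used is not given in the sources used here. Symbols and coordinates came from GENCODE M21 (GRCm38), which matched 54495 of 54532 genes, and promoters from RefSeq.

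Genes were kept by filterByExpr (minimum count 10, minimum total 15), scaled by TMM and tested with edgeR 4.0.16 (robust quasi-likelihood F test, R 4.3.3), with Benjamini-Hochberg adjustment over all 10691 tested genes and a threshold of 0.05. The SE is the log2 fold change over the square root of F. CPM use TMM-scaled totals. A floor of 3 reads was 0.555 to 0.681 CPM and, like intervals on reads, covers counting error only. Ratios added 0.5 reads to each count. Genotype labels gave the groups, and replicate numbers follow accession order and pair nothing. Over genes with at least 10 reads, the 12 library pairs within a genotype had a chi-square of 2.33 to 7.96 for each degree of freedom. The 16 pairs across genotypes had 10.8 to 18.7. No library was counted as a repeat of another, but these values cannot tell libraries of the same mouse from libraries of different mice. The procedure was tested on simulated data.

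The members, the further lists and the rule for named genes were chosen with earlier results of these data known. The rule took all members, changed genes of the further lists, the liver and brain counterparts of members, and the 5 genes most like Phka1. From the further lists, 2 genes are not reported here, and counts over those lists leave them out. Acta1, Mb, Myh4, Myl3, Myh7, Myl2, Tnnt1, Atp2a2 and Dcn were named after their values were seen. Alternatives were DESeq2 1.42.0, limma 3.58.1 voom, other scalings and filters, edgeR without robust estimation, the running number of the titles as a covariate, and leaving out each library.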

Additional observations from a re-analysis of the deposited data

Results flagged for a closer look

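In 80 groups of 4 libraries, 1 for each genotype and gene or ratio checked, 4 had a library far from the other 3 for the range of its group, and chance alone gives about 1 in 20. None of these was a glycogen gene. Myl3 had 398 CPM in knockout 1, against 148 to 171 in the other knockouts, and without that library its log2 fold change was 2.73 in place of 3.20. Myh7 had 3.56 CPM in the same library, against 0.372 to 0.427 in the other knockouts, which is 2 reads each and under the floor of 3. Knockout 1 was the highest knockout library for each listed slow marker. It had 45 reads of Myl2 (1 to 6 in the other knockouts), 81 of Tnnt1 (14 to 25) and 117 of Atp2a2 (76 to 87). Myl2, Tnnt1 and Atp2a2 were not among the 80 groups. Mb had 3464 CPM in control 2, against 2769 to 2801 in the other controls. Tatdn2 had 94.4 CPM in control 4, against 121 to 126 in the other controls.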

How the results depend on the processing

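Each glycogen gene of the 9 was refitted under 17 alternatives, 8 of which leave out 1 library and so use fewer samples. The other tested genes named with a fold change were refitted likewise, apart from Atp2a2 and Tnnt1, which were not refitted. Phka2 and Pygb had 16 alternatives, since a minimum of 5 CPM in 4 libraries removed them. Genes not named, whose fold changes appear only as the ends of a range, were not refitted. Phka1 stayed lower and past the threshold in all 17, between -1.02 and -0.90, and Gpcpd1 between -2.15 and -2.03. The adjusted p of Phka1 ranged from 1.2e-26 to 1.8e-06. Phkg1 ran from 0.23 to 0.30 with libraries left out, past the threshold in 13 of 17 alternatives, and had 0.26 with no filter on low counts, where its call was lost (adjusted p over the 17 from 0.0163 to 0.0686). Gbe1 ran from 0.29 to 0.44 with libraries left out and kept its call in 15 of 17 (adjusted p 0.0162 to 0.106). With library totals alone Pygm (-0.22) and Gyg (-0.24) passed the threshold as well, so 3 members were lower, and with no filter Ppp1r3a (-0.33) passed, so 2 members were lower and 1 higher. With libraries left out, 0 to 2 members were higher and 1 to 2 lower, Ppp1r3a ran from -0.45 to -0.19, Phkb from -0.10 to 0.00042, Pygm from -0.23 to -0.16, Gyg from -0.27 to -0.15, Ugp2 from 0.0067 to 0.18 and Gys1 from -0.071 to 0.10. Among the liver and brain counterparts, none past the threshold, Phka2 ran from 0.075 to 0.27, Phkg2 from -0.24 to -0.067, Pygl from -0.35 to -0.14 and Pygb from -0.67 to -0.44. Gys1 changed sign with DESeq2 (-0.0043), RLE scaling (-0.0043), library totals alone (-0.027), upper-quartile scaling (-0.0069) and no filter (-0.011), and the cause was not tested. The Ugp2 to Gys1 ratio ran from -0.0019 to 0.19 with libraries left out. Genes past the threshold numbered 1307 to 1835 over all alternatives, against 1675 in the analysis reported, where 948 were higher and 727 lower; scaling by library totals alone gave 829 higher, 901 lower. The other refitted genes kept their direction under the alternatives run for them. Gys2, Myh7, Myl2, Sumf2 and Ruvbl2 had too few reads for a test, and Ddx3y, Atp2a2 and Tnnt1 were not refitted. Among those past the threshold, Dcn lost its call in 5 of 17 and Acta1 in 11. No paired analysis was possible because no number is shared between the genotypes in the labels. Few reads limit the precision of Phka2, Phkg2, Pygb and Pygl, whose SE was 0.18 to 0.24.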
